A study of Mus musculus with 17 samples.

Results

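Flt3 and Hlf, 2 genes of early blood progenitors, are followed here through 17 libraries of sorted mouse common myeloid progenitors, out of 24416 genes in the files. They were chosen by name, as a cytokine receptor and a transcription factor of early progenitors, with earlier results of these data known. No threshold on their values was used. Flt3 (RefSeq NM_010229) lies on the minus strand of chromosome 5, from 147330741 to 147400489 in GRCm38, and its transcript of 3657 bases has 24 exons. Hlf (NM_172563) lies on the minus strand of chromosome 11, from 90336535 to 90390917, and its transcript of 5642 bases has 4 exons. Each gene had 1 transcript in the files, and no other gene of the files overlapped either locus.

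FLT3 is the receptor tyrosine kinase for FLT3 ligand. It is known for driving the growth of multipotent and lymphoid-primed progenitors and of dendritic cell precursors, and it is normally lost as cells commit to the red cell lineage. HLF is a transcription factor of the PAR bZIP family, whose members pair through a leucine zipper to bind DNA. It is known as a marker of hematopoietic stem cells and their earliest progeny, where it helps to keep stem cells at rest. Common myeloid progenitors, which come after the multipotent stage, give rise to the granulocyte, monocyte, red cell and platelet lineages. LIN28B binds RNA and keeps let-7 microRNAs from maturing in fetal cells. Mature let-7 in turn lowers messages with matching sites.

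The 4 groups set against controls with replicates were fetal liver labelled Lin28b knockout (n = 3), bone marrow labelled let-7b/c knockout (n = 3), and adult bone marrow with inducible LIN28B, either with vavcre (n = 2) or without it (n = 2). An inducible let-7 fetal liver group had 1 library. The controls were wild-type fetal liver (n = 3) and wild-type adult bone marrow (n = 3). All groups carry the strain label C57BL/6J except the let-7b/c knockout, labelled albino black 6, so that strain and genotype cannot be told apart in it. The design text gives vavcre as limiting induction to blood cells. Doxycycline exposure to induce Lin28b is given as the treatment of all 17 libraries, controls included. No ages are given. Nothing in the labels ties a library to its own animal, so the p-values here speak for the spread among libraries only, part of which may be technical. The bone marrow comparisons share the 3 wild-type bone marrow libraries.

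Each library held between 14957111 and 28165554 reads counted on transcripts. Lin28b, the targeted gene, stood at 112, 88.9 and 111 CPM in the libraries labelled Lin28b knockout, against 89.3, 99.6 and 124 CPM in wild-type fetal liver. A CPM is the read count of a gene scaled by the TMM-adjusted size of its library. The Lin28b counts thus did not show a loss in these libraries (log2 difference -0.00, edgeR adjusted p = 1), and they are called "labelled Lin28b knockout" throughout. The same libraries stood apart from all others by red cell messages: the 30 erythroid genes in the files summed to between 57039 and 64455 CPM there, against 1189 to 1593 CPM in wild-type fetal liver. Of the markers of the sorting gate, Kit and Ly6a had 0 counts in all libraries, and both have more than 1 transcript in the files. Cd34, of 2 transcripts, averaged 1.02 ± 0.521 CPM in the labelled knockout and 5.63 ± 0.916 CPM in wild-type fetal liver (SD, n = 3 each, edgeR adjusted p = 2.39e-05). Of 6 tested genes, out of 8 listed for the gate, 1 rose and 2 fell in that comparison. This share is near the 43.8% of all genes called. Besides Cd34, Il7r was 5.03-fold lower (edgeR adjusted p = 0.00138), while Fcgr3 was 3.59-fold higher (0.00160).

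The let-7 microRNAs named in the label of the bone marrow knockout are shown because the 3′ untranslated region of Hlf held a match to them and that of Flt3 did not. Their seeds, bases 2 to 8, are in capitals, and let-7b and let-7c share the same seed. The microRNAs are from RefSeq on GRCm38.p6 and the Hlf site from the GENCODE vM21 transcript that carries NM_172563.
let-7b-5p: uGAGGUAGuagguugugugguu
let-7c-5p: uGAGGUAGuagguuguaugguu
Hlf site: tttgtagaaaacCTACCTCAttcaaaacaa
The Hlf site lies in exon 4 at chr11:90337982-90338011 on the minus strand, and its capitals mark the bases complementary to the seed followed by an A. The match starts at base 2760 of a 3′ untranslated region of 4223 bases. The Flt3 3′ untranslated region of 430 bases held no seed match. Among 1171 mouse 3′ untranslated regions within 20% of the length of that of Hlf, 37.1% held a seed match of any kind and 8.54% one of the kind in Hlf. Among 1796 regions as long as that of Flt3, within the same 20%, 5.96% held any match. A match is a description of letters and does not show that let-7 acts on the message.

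The promoters of the 2 genes, 300 bases from 250 before to 50 after the start in RefSeq on GRCm38.p6, were searched on both strands because both genes fell together in 1 comparison. The Flt3 window held 1 E-box (CACGTG) at base 4 after the start, and 7.15% of 32851 promoters hold one. The Hlf window held 1 CRE (TGACGTCA) starting 9 bases before the start, found in 1.79% of promoters. Neither window held a PAR site (TTACGTAA, in 0.119% of promoters), a RUNX site (TGTGGT, 16.8%) or a PU.1 core (GAGGAA, 28.3%). The windows had no searched motif in common, which says only that these letters were not in both.

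Flt3 averaged between 370 and 506 CPM in 5 groups and less in the other 2. It averaged 37.8 ± 10.02 CPM in the labelled Lin28b knockout (n = 3), 400 ± 17.9 CPM in wild-type fetal liver (n = 3), 476 ± 75.2 CPM in the let-7b/c knockout (n = 3), 506 ± 160 CPM with inducible LIN28B under vavcre (n = 2), 370 ± 19.1 CPM with inducible LIN28B without vavcre (n = 2) and 386 ± 32.1 CPM in wild-type bone marrow (n = 3). The single inducible let-7 library had 153 CPM. In order of level, vavcre came highest, then the let-7b/c knockout, wild-type fetal liver, wild-type bone marrow, inducible LIN28B without vavcre, the inducible let-7 library and the labelled Lin28b knockout. Of the replicated groups, only the lowest passed the test against its neighbour in that order. This was the labelled Lin28b knockout against inducible LIN28B without vavcre, with a log2 change of -3.29 (edgeR adjusted p = 5.16e-09, with 43.5% of all genes called between those groups). The other neighbours overlapped in their libraries and did not pass the test, with edgeR adjusted p of 0.325 between the let-7b/c knockout and wild-type fetal liver (25.6% of genes called), 0.769 between the let-7b/c knockout and vavcre (27.7% called), 0.876 between wild-type fetal liver and bone marrow, and 0.969 between inducible LIN28B without vavcre and wild-type bone marrow.

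Hlf averaged between 54.1 and 114 CPM in 5 groups and less in the other 2. Its mean was 9.39 ± 1.60 CPM in the labelled Lin28b knockout (n = 3), 71.1 ± 2.64 CPM in wild-type fetal liver (n = 3), 54.1 ± 13.5 CPM in the let-7b/c knockout (n = 3), 70.2 ± 0.526 CPM under vavcre (n = 2), 114 ± 6.66 CPM with inducible LIN28B without vavcre (n = 2) and 95.3 ± 10.3 CPM in wild-type bone marrow (n = 3). The inducible let-7 library had 34.3 CPM. In order of level, inducible LIN28B without vavcre came highest, then wild-type bone marrow, wild-type fetal liver, vavcre, the let-7b/c knockout, the inducible let-7 library and the labelled Lin28b knockout. Again only the lowest replicated group passed the test against its neighbour, the let-7b/c knockout, with a log2 change of -2.53 (edgeR adjusted p = 1.14e-08, with 47.0% of genes called). The let-7b/c knockout and vavcre did not overlap but missed the threshold (adjusted p = 0.126), and vavcre and wild-type fetal liver overlapped (adjusted p = 0.969, with 36.1% of genes called). The 2 remaining neighbour pairs, wild-type fetal liver with bone marrow and inducible LIN28B without vavcre with wild-type bone marrow, did not overlap and did not pass either.

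Per kilobase of transcript, Flt3 was the more abundant message in all 17 libraries. In wild-type bone marrow it stood at 106 ± 8.77 CPM per kilobase and Hlf at 16.9 ± 1.83 CPM per kilobase (n = 3). The smallest count behind any value was 155 reads, for Hlf in labelled knockout library 8, where 7.86 CPM has a 95% exact Poisson interval of 6.67 to 9.20 CPM. No molecular identifiers are named in the protocols, so such intervals cover counting error only.

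**Figure D1:**
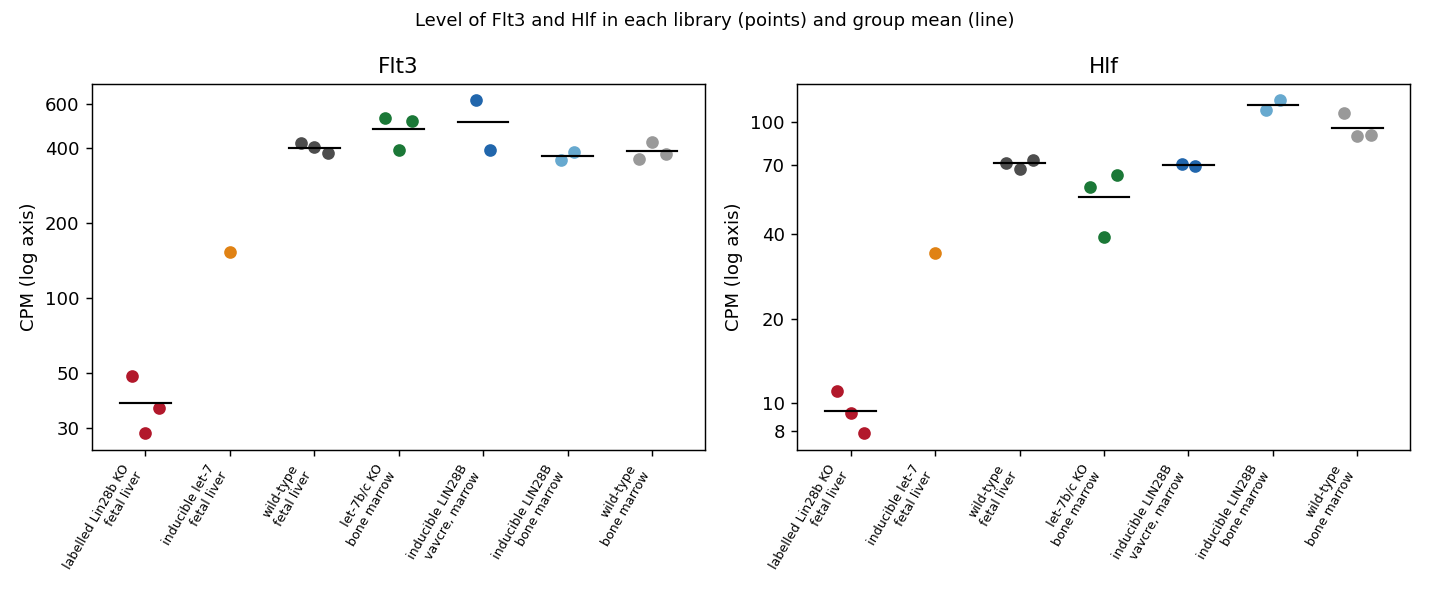
CPM on a log axis for Flt3 (left) and Hlf (right), with 1 point per library and a line at the mean of each group of 2 or 3 libraries. Both genes were lowest in the 3 libraries labelled Lin28b knockout (28.7 to 48.6 CPM of Flt3, 7.86 to 11.05 CPM of Hlf), and the inducible let-7 library (153 and 34.3 CPM) lay between them and wild-type fetal liver.

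Both genes fell in the labelled Lin28b knockout, Flt3 by 10.6-fold and Hlf by 7.57-fold against wild-type fetal liver. Flt3 had 48.6, 28.7 and 36.1 CPM in labelled knockout libraries 3, 6 and 8, against 417, 401 and 381 CPM in wild-type fetal liver libraries 1, 4 and 5. All 3 labelled knockout libraries lay far under all 3 wild-type libraries. The log2 change of Flt3 was -3.40 ± 0.195 (SE, 95% interval -3.82 to -2.99, edgeR adjusted p = 1.83e-09). Hlf had 11.05, 9.27 and 7.86 CPM in the same labelled knockout libraries, against 71.6, 68.2 and 73.4 CPM in wild-type fetal liver. These groups did not overlap either. The log2 change of Hlf was -2.92 ± 0.176 (SE, 95% interval -3.30 to -2.54, edgeR adjusted p = 3.26e-09). This comparison called 43.8% of all 13558 genes tested, and 1.45% of them had a lower log2 change than Flt3 and 2.33% a lower one than Hlf.

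Other messages of early progenitors were lower in the same libraries, in which 43.8% of all genes tested were called in either direction. The lists used here were chosen with earlier results of these data known. Of 15 tested genes, out of 22 listed, of multipotent and lymphoid-primed progenitors, 12 fell and 0 rose, with a median log2 change of -2.33, against 0 over all genes tested. Among them the surface protein Cd48 fell 6.27-fold (adjusted p = 2.17e-10) and the T cell signalling adaptor Tespa1 11.3-fold (5.54e-09). The costimulatory receptor Cd27, of 3 transcripts in the files, had few counts. It averaged 0.161 ± 0.0504 CPM in the labelled knockout and 1.94 ± 0.104 CPM in wild-type fetal liver (n = 3 each, adjusted p = 2.21e-06). Of 24 tested stem cell genes, out of 33 listed, 11 fell and 4 rose, with a median of -1.21. Hoxa7, a homeobox factor, fell 12.4-fold (adjusted p = 9.27e-10), the stem cell factor Gata2 5.32-fold (9.95e-09) and the zinc finger protein Zfp521 9.01-fold (3.70e-07). Of 8 tested regulators of Flt3, out of 12 listed, 5 fell and 0 rose, among them Spi1, which encodes PU.1 (2.28-fold, adjusted p = 7.61e-07), Mef2c (3.54-fold, 0.000218) and Myb (2.14-fold, 0.00282). The genes of FLT3 signalling were called at about the share of all genes (43.8%): of 21 tested, out of 28 listed, 7 fell and 1 rose. The adaptor Grb2 fell 1.77-fold (adjusted p = 2.41e-07), Socs6 1.81-fold (4.29e-05) and Sh2b3, an inhibitor of cytokine receptors, 1.84-fold (8.12e-05).

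Messages of other cell types differed in the same libraries, and in each list below more genes rose than fell, unlike Flt3 and Hlf. Of 25 tested erythroid genes, 24 were higher in the labelled knockout. Hba-a1 and Hbb-bt had 0 counts in all 17 libraries. Of 14 tested hepatocyte genes, 13 were higher and 1 lower, and the 18 in the files summed to between 510 and 1651 CPM, against 123 to 132 CPM in wild-type fetal liver. Serpina1a, Ahsg and Foxa2 had 0 counts in all libraries. Reads shared by transcripts were kept out of the counts, so a count of 0 does not show that a message was absent. For the same reason a low count does not show that a message was scarce. Of 19 tested granulocyte genes, 15 were higher and 1 lower, with sums of 6014 to 11612 CPM, against 5239 to 6827 CPM. Monocyte genes (6 of 13 higher, 0 lower) summed to between 933 and 1760 CPM, against 315 to 376 CPM, and megakaryocyte genes (10 of 14 higher, 3 lower) to between 1200 and 2009 CPM, against 929 to 971 CPM. All genes tested were called at 43.8% in this comparison (20.8% higher, 23.0% lower), and the number of monocyte genes called is near that share. Of 11 tested stromal and endothelial genes, 9 were higher and 1 lower, with sums of 464 to 506 CPM, against 629 to 749 CPM, so that most of these genes rose while their sum was lower. In wild-type fetal liver Col1a1, Col1a2, Col3a1, Bgn and Cdh5 averaged at most 1.61 CPM each, so that sum rested on other members of the list. In the labelled knockout these genes averaged between 4.58 and 22.3 CPM. Alignments to more than 1 place stood at 60.5 to 70.2 per 100 transcript counts there, against 20.01 to 28.8 in the other groups. Scaling without the erythroid, hepatocyte, granulocyte and stromal genes gave log2 changes of -3.40 for Flt3 and -2.91 for Hlf. The part of other cells in the falls was not tested. In bulk libraries, fewer cells that carry a message and less of it per cell cannot be told apart.

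**Figure D2:**
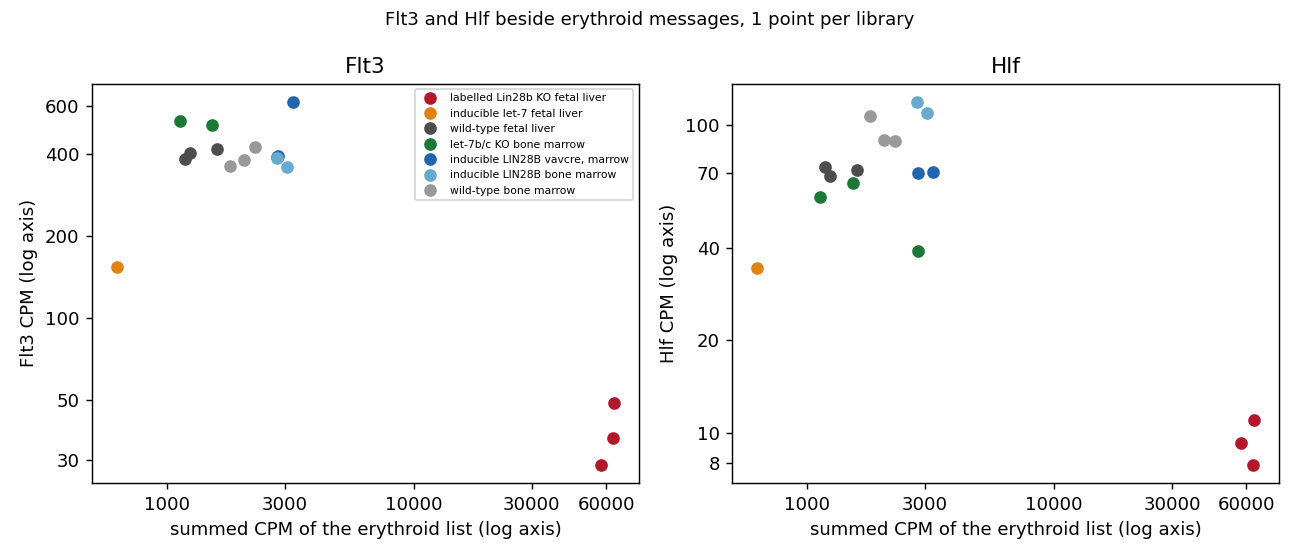
Flt3 CPM (left) and Hlf CPM (right) against the summed CPM of the erythroid genes, both on log axes, with 1 point per library coloured by group. The 3 libraries labelled Lin28b knockout sit alone at 57039 to 64455 erythroid CPM and at the lowest Flt3 and Hlf, while the inducible let-7 library has the fewest erythroid messages, 630 CPM, and the next lowest Flt3 and Hlf.

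The inducible let-7 library also held less of both messages than wild-type fetal liver, without a replicate to test. Its 153 CPM of Flt3 lay under all 3 wild-type libraries, whose mean was 2.61-fold higher. Its 34.3 CPM of Hlf lay under all 3 as well, with a wild-type mean 2.07-fold higher. It stood 4.04-fold above the mean of the labelled Lin28b knockout for Flt3 and 3.65-fold above it for Hlf. It held 630 CPM of erythroid messages, under the 1189 to 1593 CPM of wild-type fetal liver. It also held 19289 CPM of granulocyte messages, above the 5239 to 6827 CPM of wild-type fetal liver. Of that sum, 16857 CPM were Mpo, the peroxidase of early and later myeloid cells, which averaged 5440 ± 769 CPM in wild-type fetal liver (n = 3). Ltf, a late granule protein, stood at 0.465 CPM in the inducible let-7 library and averaged 4.62 ± 4.93 CPM in wild-type fetal liver (n = 3). The part of these messages in its lower Flt3 and Hlf was not tested.

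Hlf fell in the let-7b/c knockout bone marrow and Flt3 did not pass the test there. Hlf had 58.5, 38.9 and 64.9 CPM in let-7b/c knockout libraries 1, 2 and 3, against 107, 89.0 and 89.7 CPM in wild-type bone marrow libraries 2, 5 and 6. All knockout libraries lay under all wild-type ones, and library 2 was the lowest. The log2 change was -0.82 ± 0.1601 (SE, 95% interval -1.16 to -0.47, edgeR adjusted p = 0.0153, 1.76-fold lower), in a comparison that called 2.25% of all genes. Flt3 had 528, 390 and 510 CPM in the same knockout libraries, against 359, 421 and 378 CPM in wild-type bone marrow. Libraries 1 and 3 lay above all wild-type ones and library 2 among them. The log2 change of Flt3 was 0.30 (95% interval -0.07 to 0.68, edgeR adjusted p = 0.463). The call on Hlf ended without wild-type bone marrow library 2, the highest of its group (log2 change -0.70, adjusted p = 0.0857).

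The let-7b/c knockout libraries also differed in monocyte and platelet messages. Of 13 tested monocyte genes, 3 were higher and 1 lower, in a comparison that called 2.25% of all genes. The list summed to between 2032 and 2586 CPM, against 516 to 724 CPM in wild-type bone marrow. Most of the knockout sum was 1 gene, Ccr2, which averaged 1470 ± 205 CPM there and 59.7 ± 9.26 CPM in wild-type bone marrow (n = 3 each). Of 14 tested megakaryocyte genes, 5 were lower and 0 higher, with sums of 723 to 1131 CPM, against 1363 to 1650 CPM. Granulocyte genes (1 of 19 higher, 0 lower) summed to between 15853 and 20480 CPM, against 11149 to 13129 CPM, and Mpo made up most of both sums (14767 ± 1860 CPM, against 10205 ± 1074 CPM, n = 3 each). Mast cell genes (3 of 13 higher, 3 lower) summed to between 618 and 853 CPM, against 1044 to 1133 CPM. Knockout library 2, with the least Hlf, had the highest monocyte and the lowest megakaryocyte sum. Their part in the lower Hlf was not tested. Of 24 stem cell genes, only Gata2 was called, 1.56-fold lower (edgeR adjusted p = 0.0355). The single calls among stem cell and granulocyte genes lie near the 2.25% of all genes called. Of the 15 multipotent and lymphoid-primed genes, 2 fell, the transcription factor Bcl11a (1.55-fold, 0.0177) and the cytokine Ltb (2.32-fold, 0.0366).

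Neither gene passed the test between fetal and adult wild-type progenitors. Flt3 had 417, 401 and 381 CPM in wild-type fetal liver, against 359, 421 and 378 CPM in wild-type bone marrow, and the groups overlapped. Its log2 change was 0.05 (95% interval -0.32 to 0.42, edgeR adjusted p = 0.876), while 27.1% of all genes were called. Hlf had 71.6, 68.2 and 73.4 CPM in wild-type fetal liver, against 107, 89.0 and 89.7 CPM in wild-type bone marrow. All fetal libraries lay under all adult ones. The log2 change of Hlf was -0.42 ± 0.159 (SE, 95% interval -0.76 to -0.08), just outside the threshold (edgeR adjusted p = 0.0619). With library totals in place of TMM scaling it passed at a log2 change of -0.53 (adjusted p = 0.0238), and with DESeq2's Wald test at -0.44 (0.0279). Tissue and developmental stage cannot be told apart here. Marker sums of other lineages also differed between the groups. Mpo, a message of early as well as later myeloid cells, made up most of the granulocyte sum in both. It was 1.88-fold lower in wild-type fetal liver (edgeR adjusted p = 0.00132). Granulocyte genes (15 of 19 lower, 0 higher) summed to between 5239 and 6827 CPM in wild-type fetal liver, against 11149 to 13129 CPM in wild-type bone marrow, and megakaryocyte genes (8 of 14 lower, 0 higher) to between 929 and 971 CPM, against 1363 to 1650 CPM. Mast cell genes (7 of 13 lower, 1 higher) summed to between 395 and 488 CPM in wild-type fetal liver, against 1044 to 1133 CPM in wild-type bone marrow, and monocyte genes (6 of 13 lower, 1 higher) to between 315 and 376 CPM, against 516 to 724 CPM. Their part in the Hlf difference was not tested.

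Around them, the multipotent, stem cell and FLT3 signalling genes were called at shares near or under the 27.1% of all genes tested, so these counts are no result about the lists. Of 15 multipotent and lymphoid-primed genes, 4 were higher in fetal liver and 1 lower. Il7r, the receptor of early lymphoid cells, was 17.4-fold higher (edgeR adjusted p = 6.01e-05), the recombinase gene Rag2 5.44-fold higher (6.23e-05), and its partner Rag1 averaged 9.55 ± 2.71 CPM in fetal liver and 0.0165 ± 0.0287 CPM in bone marrow (n = 3 each, 0.000124). Of 24 stem cell genes, 2 were higher and 5 lower, with Ndn, a growth-restraining gene, 21.1-fold higher (5.52e-05). Among those lower were Myct1 (4.46-fold lower, adjusted p = 7.86e-06) and Gata2 (2.13-fold lower, 8.05e-05). Of 21 FLT3 signalling genes, 2 were higher and 2 lower, with Sh2b3 1.77-fold higher (0.000336) and the adaptor Sla2 3.79-fold higher (0.00108).

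In the inducible LIN28B lines Hlf stood lower with vavcre than without it. Counts of the mouse gene Lin28b were low in both lines, at 1.73 and 3.92 CPM with vavcre and 2.06 and 3.28 CPM without it. The lines did not differ in it (edgeR adjusted p = 0.956). Wild-type bone marrow had 0.0585 to 0.744 CPM of Lin28b and wild-type fetal liver 89.3 to 124 CPM. Hlf had 70.6 and 69.9 CPM in vavcre libraries 4 and 6, against 110 and 119 CPM in libraries 1 and 5 of inducible LIN28B without vavcre. The Hlf values of the lines did not overlap, which so few libraries can also show by chance. The log2 difference was -0.70 ± 0.195 (SE, 95% interval -1.12 to -0.29, edgeR adjusted p = 0.0184, 1.63-fold lower), with 20.6% of all genes called between the lines. Flt3 had 619 and 393 CPM under vavcre, against 356 and 384 CPM without it. Both vavcre libraries lay above, library 6 by little. The log2 difference of Flt3 was 0.45 (95% interval -0.01 to 0.91, edgeR adjusted p = 0.154).

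Against wild-type bone marrow, neither line passed the test for either gene. The vavcre line had 70.6 and 69.9 CPM of Hlf, under all 3 wild-type libraries, with a log2 change of -0.44 (95% interval -0.82 to -0.06, edgeR adjusted p = 0.0822) in a comparison that called 26.8% of genes. The line without vavcre had 110 and 119 CPM of Hlf, above all 3 wild-type libraries at 107, 89.0 and 89.7 CPM, with a log2 change of 0.26 (95% interval -0.11 to 0.64, adjusted p = 0.669) and 0.804% of genes called. For Flt3 the log2 change was 0.39 with vavcre (95% interval -0.02 to 0.80, adjusted p = 0.149) and -0.06 without it (95% interval -0.48 to 0.36, adjusted p = 0.969). The mean of the 2 lines gave 0.16 for Flt3 (adjusted p = 0.553) and -0.09 for Hlf (adjusted p = 0.750), with 14.4% of genes called.

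The Flt3 value of the vavcre line depended on which of its 2 libraries was kept. Without library 4 the log2 change against wild-type bone marrow was 0.03 (edgeR adjusted p = 0.925), and without library 6 it was 0.68 (0.0178). Between the lines it was 0.09 without library 4 (adjusted p = 0.818) and 0.74 without library 6 (0.0209). The Hlf difference between the lines lost its call without library 5 of the line without vavcre (log2 difference -0.64, adjusted p = 0.112), and with only these 2 groups in the fit (-0.70, adjusted p = 0.0529). Of 24 stem cell genes, 5 were lower with vavcre than without and 0 higher, a share near the 20.6% of all genes called, so the count is no result about the list. Procr, a surface marker of stem cells, had 0 counts in both vavcre libraries and averaged 4.68 ± 1.21 CPM without vavcre (n = 2, adjusted p = 0.000108). Mecom, a stem cell transcription factor, was 3.01-fold lower (adjusted p = 0.00766) and Gata2 1.62-fold lower (0.0143). The summed stem cell genes stood at 632 to 779 CPM with vavcre and at 969 to 1104 CPM without it, against 654 to 720 CPM in wild-type bone marrow. Stromal and endothelial genes (2 of 11 lower, 0 higher between the lines) summed to between 208 and 213 CPM with vavcre and to between 754 and 912 CPM without it, against 611 to 808 CPM in wild-type bone marrow. That count is near the 20.6% of all genes called. The 2 called were Vim, 4.03-fold lower (edgeR adjusted p = 3.72e-05), and Bgn, which averaged 0.0844 CPM with vavcre and 1.37 CPM without it. Col1a1, Col1a2, Col3a1 and Cdh5 averaged at most 0.295 CPM in either line, so the sums rested on other members of the list. Mast cell genes (6 of 13 lower, 0 higher) summed to between 1050 and 1388 CPM with vavcre and to between 1495 and 1508 CPM without it, against 1044 to 1133 CPM in wild-type bone marrow. Granulocyte genes (2 of 19 higher, 0 lower) stood under the 20.6% of all genes called. Mpo made up most of their sum, at 9695 ± 1401 CPM with vavcre and 5441 ± 405 CPM without it (n = 2 each). The part of these messages in the Hlf difference was not tested.

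**Figure D3:**
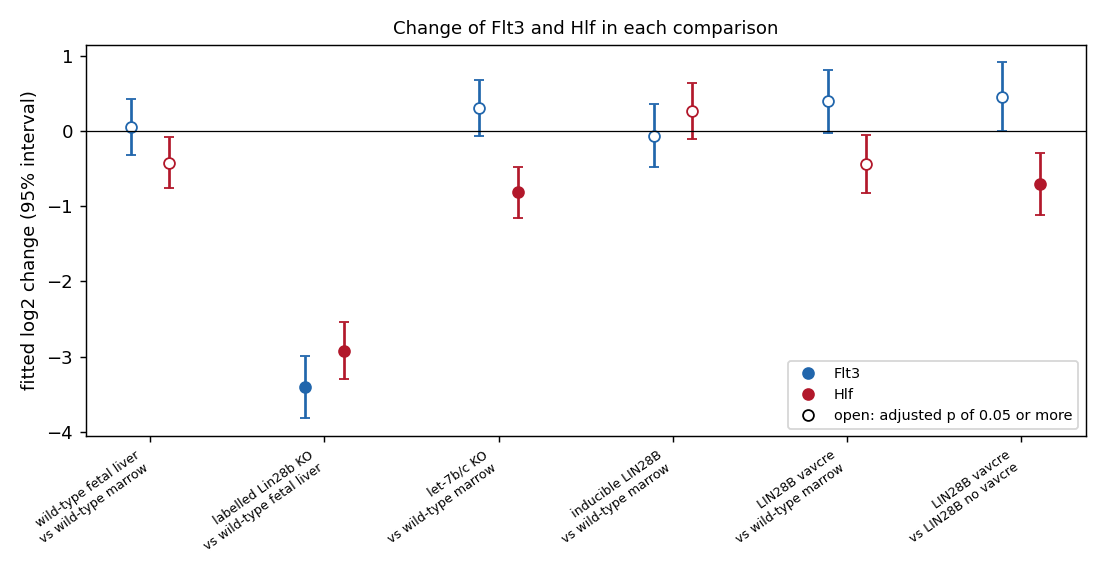
Fitted log2 change of Flt3 (blue) and Hlf (red) in 6 comparisons, with 95% intervals as bars. Filled points passed an adjusted p under 0.05. Flt3 passed only in the labelled Lin28b knockout (-3.40), and Hlf there (-2.92), in the let-7b/c knockout (-0.82) and between the LIN28B lines (-0.70).

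The 2 messages were also set against each other within a library, a measure added after the values were seen, which does not depend on scaling. Flt3 counts per Hlf count were 9.03, 10.01 and 7.86 in the let-7b/c knockout, against 3.35, 4.74 and 4.21 in wild-type bone marrow. They were 5.82, 5.88 and 5.19 in wild-type fetal liver, against the same bone marrow values. They were 4.395, 3.10 and 4.59 in the labelled Lin28b knockout, against 5.82, 5.88 and 5.19 in wild-type fetal liver. The groups did not overlap in any of these comparisons. Each gave a two-sided exact permutation p = 0.1, the smallest that 3 against 3 libraries allow, or 0.133 adjusted over 4 tests. The LIN28B lines together spanned 8.77 and 5.63 with vavcre and 3.25 and 3.22 without it, on either side of wild-type bone marrow (exact permutation p = 0.743, smallest possible 0.0571). The inducible let-7 library had 4.46.

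**Figure D4:**
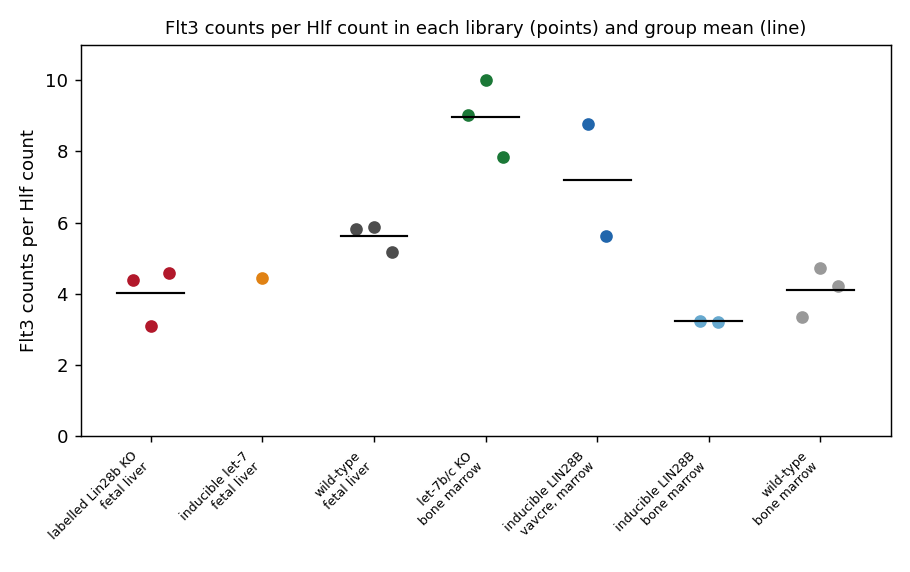
Flt3 counts per Hlf count, with 1 point per library and a line at each group mean. The let-7b/c knockout libraries sit at 7.86 to 10.01, above the 3.35 to 4.74 of wild-type bone marrow, and the vavcre libraries are spread from 5.63 to 8.77.

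As a description, log2 CPM of Flt3 and Hlf had a Pearson r of 0.923 over 17 libraries. Without the labelled knockout it was 0.357 over 14 libraries. Libraries of a group share their condition and are not independent points, and no p is given. Genes with the pattern most like that of Flt3 over 17 libraries were Cd79b, Sh2d5, Sox4, Rassf5 and Slc22a5 (r from 0.971 to 0.977). Those most like Hlf were H1f10, Spns2, Dock2, Ikzf2 and Gcnt2 (0.967 to 0.975). Without the labelled knockout the r of the Flt3 set lay between 0.682 and 0.855 and that of the Hlf set between 0.812 and 0.861. Ranked over the 7 group means, 0 of 5 stayed among the nearest 5 of either gene.

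Among the ligands and relatives of FLT3, the receptor Csf1r had the most counts in every group. CSF1R is the receptor of macrophage growth factors and belongs to the same class of kinases. Csf1r averaged 260 ± 66.5 CPM in the let-7b/c knockout (n = 3), 39.6 ± 7.28 CPM with inducible LIN28B without vavcre (n = 2) and 101 ± 10.6 CPM in wild-type bone marrow (n = 3). It was thus higher in the knockout (log2 change 1.36, edgeR adjusted p = 0.000770) and lower in that LIN28B line (-1.36, 0.00342), 2 comparisons in which Flt3 did not pass the test. In the labelled Lin28b knockout, where Flt3 fell, Csf1r averaged 154 ± 27.2 CPM and in wild-type fetal liver 141 ± 13.1 CPM (n = 3 each, adjusted p = 0.572). It was higher with vavcre than without (log2 difference 1.11, adjusted p = 0.00181) and in wild-type fetal liver than in wild-type bone marrow (0.47, 0.0470). Flt3l, the ligand of FLT3, stayed under 1 CPM on average in every group. Kitl, the ligand of KIT, averaged 3.99 ± 2.93 CPM in the labelled Lin28b knockout and 0.0764 ± 0.132 CPM in wild-type fetal liver (n = 3 each, log2 change 5.68, adjusted p = 0.00200). Kit, Il34 and Pdgfrb had 0 counts, and Csf1 and Pdgfra too few to test. Reads shared by transcripts were not counted, so low or absent counts in this family do not show low levels.

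Among the relatives of Hlf, NFIL3 is a repressor that binds the same DNA sites, and DBP and TEF are PAR bZIP activators under the circadian clock. Nfil3 averaged 34.9 ± 3.27 CPM in wild-type fetal liver and 9.92 ± 1.22 CPM in wild-type bone marrow (n = 3 each, log2 change 1.82, edgeR adjusted p = 7.32e-05). It averaged 27.4 ± 6.996 CPM in the let-7b/c knockout (n = 3), higher than in wild-type bone marrow (log2 change 1.46, adjusted p = 0.00769), while Hlf was lower in that knockout. In the labelled Lin28b knockout Nfil3 averaged 13.3 ± 3.02 CPM (n = 3), lower than in wild-type fetal liver (-1.40, 0.000258), as Hlf was. Dbp averaged 2.02 ± 0.454 CPM in the labelled Lin28b knockout, 3.89 ± 0.819 CPM in wild-type fetal liver and 6.96 ± 0.711 CPM in wild-type bone marrow (n = 3 each). It was lower in the labelled knockout than in wild-type fetal liver (-0.94, adjusted p = 0.0199) and in wild-type fetal liver than in wild-type bone marrow (-0.84, 0.0444). Tef stayed under 1 CPM on average in every group, in counts that leave out reads shared by transcripts. Of 11 tested clock genes, 1 was higher and 4 lower in the labelled Lin28b knockout, among them Cry1 (2.75-fold lower, 7.38e-08) and Nr1d2 (3.09-fold lower, 2.18e-06). That share is near the 43.8% of all genes called there. In the let-7b/c knockout, 0 clock genes were called.

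**Figure D5:**
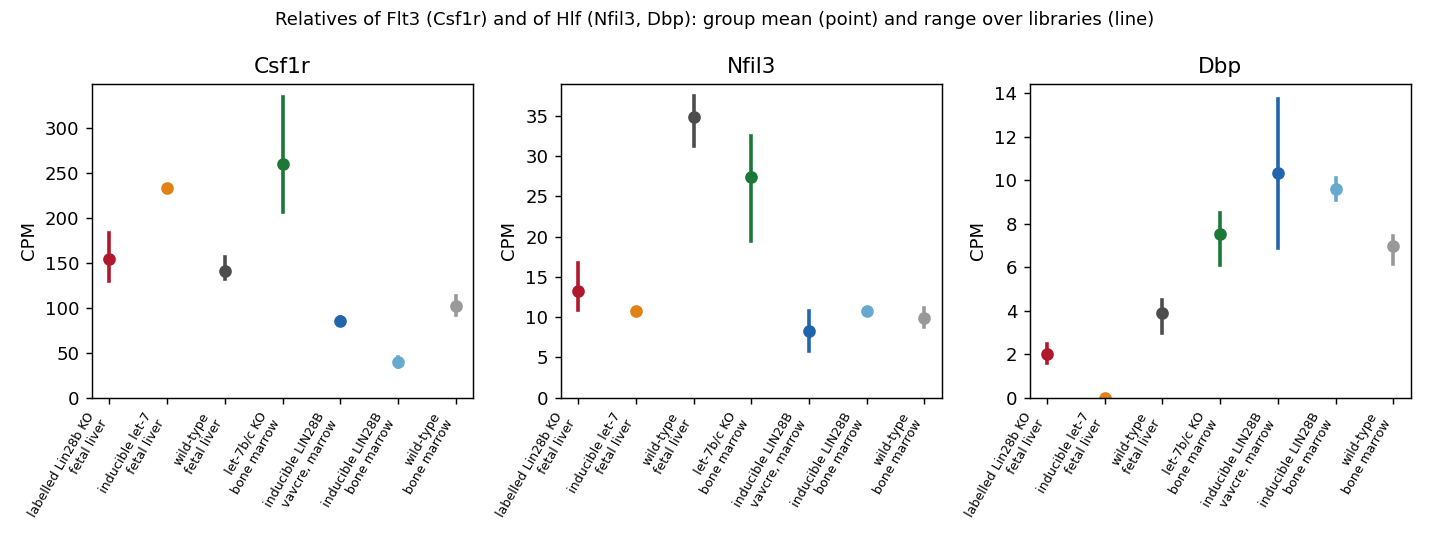
CPM of Csf1r, a relative of Flt3, and of Nfil3 and Dbp, relatives of Hlf, with the group mean as a point and the range over its libraries as a line. Csf1r is highest in the let-7b/c knockout (260 CPM on average) and Nfil3 in wild-type fetal liver (34.9 CPM), and the inducible let-7 library is listed at 0 for Dbp.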

How the data were processed

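Per the labels' protocols, total RNA of sorted common myeloid progenitors was made into libraries with an ultra-low-input cDNA kit. Tools named in the submitters' processing notes are cutadapt, TopHat2 and HTSeq, with mm10 as genome build, and no versions or strand setting. The authors deposited raw counts per RefSeq transcript. Reads shared by transcripts (23.8% to 29.8% of uniquely placed reads) or outside them (8.87% to 19.3%) were listed apart and kept out of library sizes.

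The 33818 accessions were summed to 24416 genes through a RefSeq table for GRCm38.p6 (33435 accessions) or GENCODE vM21 (191), and 192 had no name. All 17 libraries entered 1 quasi-likelihood fit in edgeR 4.0.16, with TMM sizes, filterByExpr at a minimum count of 10, 13558 genes and 10 residual degrees of freedom. Calls used two-sided p-values adjusted by Benjamini and Hochberg over all genes, under 0.05. Log2 CPM used a prior count of 2. Alternatives included DESeq2 1.42.0. The fit was tested on simulated data. No pair of libraries of the same group agreed within sampling noise, and pairs across groups were not compared in this way.

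Members and the 16 gene lists were chosen with earlier results of these data known, and the ratio of the members after their values were seen. Named were both members, their relatives, up to 3 called genes of each other list per comparison by smallest p, and the 5 genes with the highest Pearson r to each member. The ranking by r left out predicted genes (Gm and Rik names), small RNAs, genes without a name, Xist and Y-linked genes. Lists are described by counts, sums and medians only.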

Additional observations from a re-analysis of the deposited data

Results flagged for a closer look

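The difference in Hlf between the LIN28B lines with and without vavcre passed the test, but not under every setting. Against wild-type bone marrow the log2 change was -0.44 with vavcre and 0.26 without it, and the difference of the 2 was -0.70 (edgeR adjusted p = 0.0184, n = 2 libraries each). Neither line passed the test against wild-type bone marrow (adjusted p = 0.0822 with vavcre and 0.669 without it). The difference of the 2 did not pass without library 5 of the line without vavcre (adjusted p = 0.112), with only these 2 groups in the fit (0.0529) or with the replicate number as a block (0.223). Both vavcre libraries lay under all 3 wild-type libraries and both libraries without vavcre above them. So few libraries can also show such an order by chance.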

How the results depend on the processing

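Of 362 alternative results for the members, 342 kept direction and side of the threshold, 8 passed it newly, 5 no longer passed and 7 reversed. The falls in the labelled Lin28b knockout kept both under all alternatives (log2 change -3.62 to -3.22 for Flt3, -3.12 to -2.80 for Hlf). The cause of the changes below was not tested. Between wild-type fetal liver and bone marrow, library totals gave -0.0612 for Flt3 and -0.53 for Hlf, and Hlf also passed with DESeq2's Wald test (-0.44), with genes of 1 transcript (-0.44) and with the groups fitted alone (-0.42). Library totals moved the median of all genes by about -0.19 in the labelled knockout, where 35.3% of calls were higher, against 47.5% with TMM, and to -0.19 between the wild types, where 38.1% were higher, against 51.3%. The Hlf difference between the LIN28B lines was -0.70 and missed the threshold with these groups alone (edgeR adjusted p = 0.0529).

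Equal replicate numbers did not pair the libraries: deviations of same-numbered libraries correlated at -0.0834 to 0.0304 (12 pairs). With the replicate block, the log2 change of Flt3 was -0.27 between the wild types and -0.0511 for the mean of the LIN28B lines, and that of Hlf was -1.005 in the let-7b/c knockout (adjusted p = 0.0967) and -0.60 between the LIN28B lines (0.223). With the block, called genes numbered 2185 between the wild types, 3073 in the labelled knockout, 35 in the let-7b/c knockout, 274 for the mean of the LIN28B lines, 16 without and 1539 with vavcre against wild-type bone marrow, and 435 between the lines, against 3677, 5941, 305, 1958, 109, 3634 and 2799 without it. DESeq2's Wald test called 783 in the let-7b/c knockout and 403 without vavcre, where no filter gave 191. Groups fitted alone gave 1132 for the mean of the lines, 268 without vavcre, 2007 with it and 422 between the lines.

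Leaving out 1 library at a time gave log2 changes between the wild types of 0.02 to 0.13 for Flt3 and -0.46 to -0.31 for Hlf, which passed without let-7b/c knockout library 2 (-0.41). In the let-7b/c knockout they were 0.24 to 0.45 and -0.94 to -0.61. For the mean of the LIN28B lines they were -0.00975 to 0.31 and -0.14 to 0.0112, reversing without vavcre library 4 for Flt3 and without wild-type bone marrow library 2 for Hlf. Without vavcre they were -0.11 to 0.01 for Flt3, which reversed at 0.000815 without library 1 of that line and at 0.00578 without wild-type bone marrow library 5, and 0.21 to 0.36 for Hlf. With vavcre they were 0.0347 to 0.68 and -0.49 to -0.34, and Hlf passed at -0.43 without let-7b/c knockout library 2. Between the lines they were 0.0890 to 0.74 and -0.77 to -0.64. Called genes ranged from 2792 to 4390 between the wild types, 5084 to 6574 in the labelled knockout, 96 (without wild-type bone marrow library 2) to 600 (without vavcre library 4) in the let-7b/c knockout, 1095 (without wild-type bone marrow library 2) to 2672 for the mean of the lines, 26 (without library 5 of that line) to 242 (without vavcre library 6) without vavcre, 2845 to 3846 with it, and 1376 (without library 5 of the line without vavcre) to 3152 between the lines. Of the nearest 5 genes of each member, 0 remained over group means. Without the labelled knockout group, an alternative chosen after seeing the data, no call on the members changed.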
